A study of Mus musculus with 19 samples.

Results

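The 4 genes described here, Krt6a, Krt6b, Krt16 and Krt17, are the wound and stress keratins of the epidermis. They were taken by gene name from a table of 34807 genes in 19 bulk RNA-seq libraries of mouse skin tumours and normal skin. Keratins are filament proteins that assemble as pairs of a type II and a type I chain. Krt6a and Krt6b encode type II chains, and Krt16 and Krt17 encode type I chains that pair with them. In resting epidermis between the hair follicles these genes are largely silent, while the outer layers of the follicle, the nail bed and the palate express some of them all the time. After wounding, and in hyperproliferative skin disease and squamous tumours, keratinocytes above the basal layer switch them on.

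The study asked how the cell of origin bears on squamous tumours driven by BRAFV600E, an activated form of a MAPK pathway kinase. In C57BL/6J mice aged 7 to 20 weeks per the labels, a tamoxifen-inducible Cre (CreERT2) switched on BRAFV600E under 1 of 3 promoters. The Ivl promoter (Ivl, 6 tumours) is active in differentiating keratinocytes and a progenitor population, and the Krt5 (K5, 5 tumours) and Krt14 (K14, 4 tumours) promoters are active in basal keratinocytes. The 4 samples of NormalSkin were wild type, and the labels give every animal as female. Per the study, the controls were littermates. The range of ages at induction is narrower in the paper than in the labels. Per the study, recombination was induced on the shaved back, with tamoxifen in Ivl mice and 4-hydroxytamoxifen in K5 and K14 mice. Ivl tumours arose at several body sites, and K5 and K14 tumours on the back. Ivl tumours also arose later after induction and grew more slowly, per the study. Tumour site, latency and inducing agent therefore cannot be told apart from the Cre line. Whole tumours were extracted, so fewer keratinocytes and less RNA per keratinocyte cannot be told apart either. Total counts lay between 45715309 and 72609771 per library. All 8 keratinocyte markers checked (Trp63, Cdh1, Dsp, Jup, Perp, Pkp1, Dsc3 and Dsg3) were present in every group.

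The authors adjusted the counts for a sequencing batch that the labels do not name. Ivl tumours 1, 2 and 3 and K5 tumour 1 stood apart as a set. Of 13954 genes, 96.6% had nearly the same mean in those 4 libraries as in the 15 remaining (a gap under 0.1 on the log2 scale), against 64.1% for the next of 3876 possible sets of 4. Krt6b and Krt16 followed this less closely. The set means of Krt6a, Krt6b, Krt16 and Krt17 differed from those of the other 15 by -0.11, -0.28, -0.19 and 0.04 on the log2 scale. Krt6a was thus just outside the gap of 0.1, and Krt17 was inside it. Stress keratin fold changes against skin, and between Ivl and K5/K14 tumours, are therefore also given within the 15 libraries outside the set. Those are 4 skin samples, 3 Ivl, 4 K5 and 4 K14 tumours. For K5 or K14 tumours alone, and for ratios and shares, such values are given only in part.

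In the mouse genome (GRCm38), Krt6a (ENSMUSG00000058354) lies at chr15:101689910-101694307 and Krt6b (ENSMUSG00000023041) at chr15:101676023-101680287, 9622 bases apart. Krt16 (ENSMUSG00000053797) lies at chr11:100246091-100248902 and Krt17 (ENSMUSG00000035557) at chr11:100256217-100261029, 7314 bases apart. All 4 are protein-coding genes on the minus strand. The coding sequences of Krt6a and Krt6b were 97.77% identical (37 of 1659 aligned bases differed), those of Krt16 and Krt17 80.48%. By its own sequence, a read can be assigned to one copy only where the copies differ. The 120 coding bases in which the Krt6 pair differed most are therefore shown first, with the 17 differing bases in capitals. They are bases 751 to 870 of both coding sequences, on 2 neighbouring exons, between chr15:101692490-101692766 in Krt6a and chr15:101678309-101678585 in Krt6b. The last sequence is the start of the longest stretch (280 bases) that the copies share, within which no read can be assigned by its own sequence. It is coding bases 34 to 153, at chr15:101694096-101694215 in Krt6a and chr15:101680071-101680190 in Krt6b.
Krt6a, most different: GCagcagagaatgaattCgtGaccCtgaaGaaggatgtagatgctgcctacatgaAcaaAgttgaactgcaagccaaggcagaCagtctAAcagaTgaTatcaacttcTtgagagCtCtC
Krt6b, most different: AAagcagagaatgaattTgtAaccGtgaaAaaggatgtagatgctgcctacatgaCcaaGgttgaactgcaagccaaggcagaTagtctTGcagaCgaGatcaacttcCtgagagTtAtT
Krt6a and Krt6b, identical: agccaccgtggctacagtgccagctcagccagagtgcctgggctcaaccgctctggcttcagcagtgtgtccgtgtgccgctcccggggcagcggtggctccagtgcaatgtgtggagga

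With reads of 101 bases, the length in the labels, 29.3% of the 2178 possible positions on the Krt6a transcript occurred letter for letter in Krt6b as well, and 29.9% of the 2135 positions on Krt6b occurred in Krt6a. With every other gene counted, on either strand, the shares were unequal, at 47.2% for Krt6a and 30.4% for Krt6b. For Krt16, 21.1% of 1465 positions occurred in the pseudogene Gm11597 and 3.0% in Krt14. For Krt17 the share was 0% of 1451 positions. The split between Krt6a and Krt6b is therefore uncertain, and their sum is given beside the tests. The shares of positions treat each read alone, although the reads were paired per the study. The neighbouring gene Gm5478, which shared 4.13% of the Krt6a positions, held 131 to 20730 counts per library. Gm11597 held 22 to 10789 counts. An antisense gene over Krt6a, Gm49428, which shared 13.5% of the Krt6a positions, held 19 to 734 counts, and the use of strand in counting is not stated.

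Transcripts of all 4 stress keratins were higher in tumours than in normal skin. In skin the 4 genes together took 0.153% to 0.348% of all counts of a library. In 13 of the 15 tumours they took 3.7% to 6.18%, and in Ivl tumours 1 and 3 they took 1.27% and 0.965%. All 4 genes rose in Ivl tumours and all 4 rose in K5/K14 tumours (edgeR, adjusted p under 0.05), where 20.4% and 23.2% of 32031 genes rose. For all 4, every tumour lay above every skin sample. Of all genes, 13.2% did so in Ivl tumours and 16.7% in K5/K14 tumours. The 2 comparisons share the 4 skin samples.

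**Figure D1:**
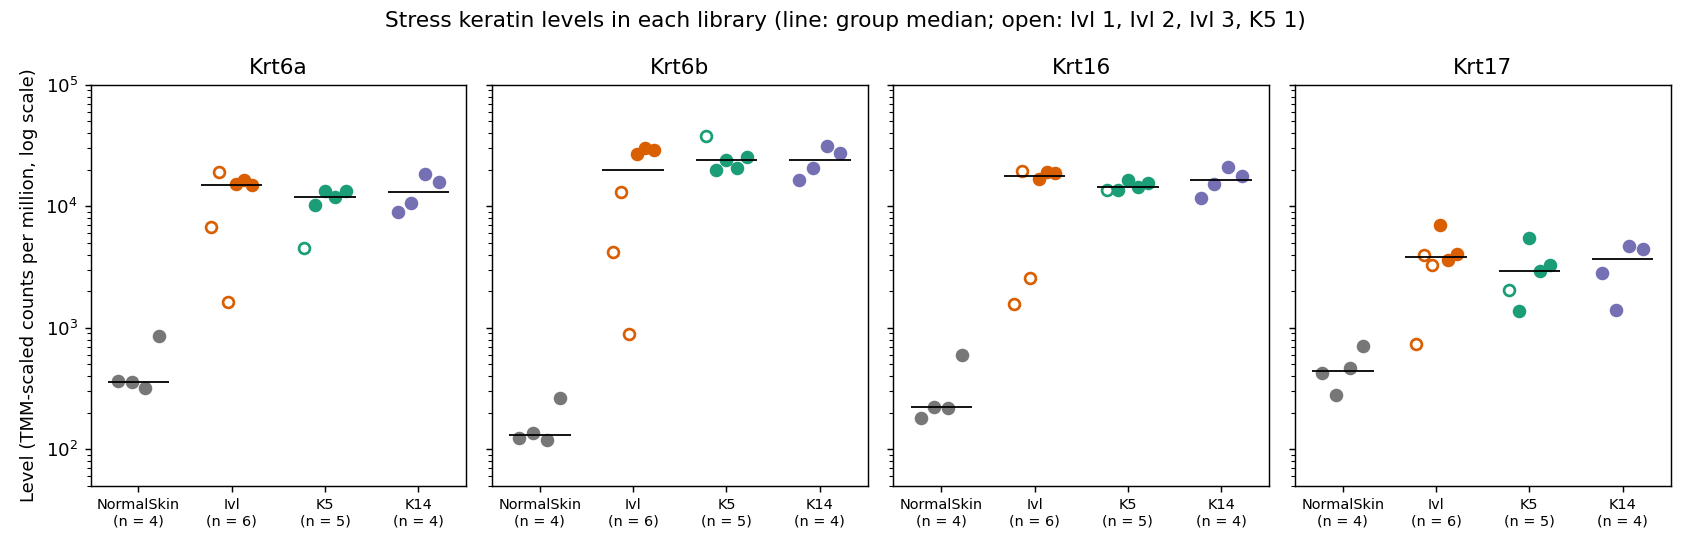
Level of each stress keratin (CPM scaled by TMM, log axis) in each of the 19 libraries, by group, with the group median as a line and open symbols for Ivl tumours 1, 2 and 3 and K5 tumour 1. Every tumour lies above every skin sample for all 4 genes. The lowest tumour is Ivl 3 for Krt6a and Krt6b and Ivl 1 for Krt16 and Krt17.

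Krt6a was measured at 362, 359, 322 and 860.0 CPM (counts scaled to a common library total, with TMM factors for library composition) in NormalSkin 1 to 4. In Ivl tumours the lowest, median and highest values were 1643, 15031 and 19256 CPM. The 5 K5 tumours held 4524, 10180.0, 13479, 11901 and 13325 CPM, and the 4 K14 tumours 9044, 10565, 18491 and 15946 CPM. The 3 tumour groups overlapped one another, and Ivl 3 was the tumour nearest to skin. Against skin, Krt6a was higher by 4.70 ± 0.60 on the log2 scale (SE, n = 6 and 4) in Ivl tumours (edgeR, adjusted p = 1.97e-05) and by 4.65 ± 0.58 (n = 9 and 4) in K5/K14 tumours (adjusted p = 3.99e-06). Within the 15 libraries the differences were 5.03 ± 0.35 and 4.76 ± 0.33.

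Krt6b, the other copy, was the scarcest member in skin, per length too, at 123, 137, 119 and 265 CPM. Ivl tumours ranged from 895 through a median of 19948 to 30495 CPM. K5 tumours held 37773, 19942, 24156, 20748 and 25413 CPM, and K14 tumours 16345, 20872, 31431 and 27368 CPM. The highest value of all was that of K5 1, and the lowest 3 tumours were Ivl 3, Ivl 1 and Ivl 2, so that the set that stood apart held both ends of the range. Krt6b had the largest fold change of the 4 genes, 6.76 ± 0.81 on the log2 scale in Ivl tumours (adjusted p = 1.82e-05) and 7.27 ± 0.82 in K5/K14 tumours (adjusted p = 2.00e-06). Within the 15 libraries it was 7.48 ± 0.34 and 7.18 ± 0.32, a rise of the Ivl value by more than 1.5 times on the linear scale.

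The sum of Krt6a and Krt6b was 485, 496, 441 and 1125 CPM in skin. It was taken after the batch adjustment of the counts, so it is not wholly free of how reads were divided between the copies. In Ivl tumours the lowest, median and highest sums were 2539, 37158 and 47069 CPM. In K5 tumours the sum was 42297, 30122, 37635, 32649 and 38738 CPM, and in K14 tumours 25389, 31437, 49922 and 43314 CPM. K5 1, the highest for Krt6b and the lowest of its group for Krt6a, lay within the range of all tumours for the sum. The sum was higher than in skin by 5.55 ± 0.66 on the log2 scale in Ivl tumours (adjusted p = 1.82e-05) and by 5.85 ± 0.66 in K5/K14 tumours (adjusted p = 1.90e-06), and by 6.12 ± 0.36 and 5.83 ± 0.34 within the 15 libraries.

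Krt16, the type I chain regarded as the main partner of the Krt6 proteins, stood at 181, 222, 220.0 and 602 CPM in skin. Its lowest, median and highest values in Ivl tumours were 1579.6, 17832 and 19578 CPM. K5 tumours held 13694.5, 13737, 16534, 14376 and 15542 CPM, and K14 tumours 11696, 15232, 21276 and 17944.5 CPM. The K5 group was the most even, and Ivl 1 and Ivl 3 (2552 CPM) lay apart from the other 13 tumours. Krt16 was higher by 5.42 ± 0.68 in Ivl tumours (adjusted p = 1.97e-05) and by 5.67 ± 0.68 in K5/K14 tumours (adjusted p = 2.98e-06), on the log2 scale. Within the 15 libraries the differences were 5.90 ± 0.39 and 5.69 ± 0.36.

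Krt17, a type I chain that is also expressed in the outer root sheath of hair follicles and in cells of other skin appendages, was at 422, 279, 465 and 714 CPM in skin. In Ivl tumours it was at 733, 3796 and 7005 CPM (lowest, median, highest). In K5 tumours it was at 2049, 1366, 5532, 2937 and 3275 CPM, and in K14 tumours at 2816, 1405, 4710.4 and 4496 CPM. The gap to skin was narrow, since Ivl 1 exceeded NormalSkin 4 by 733 to 714 CPM. Krt17 changed least of the 4, by 3.01 ± 0.52 on the log2 scale in Ivl tumours (adjusted p = 1.77e-04) and by 2.76 ± 0.50 in K5/K14 tumours (adjusted p = 1.62e-04). Within the 15 libraries the values were 3.38 ± 0.47 and 2.82 ± 0.42.

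These differences stand beside a median over all genes that was itself below 0, at -0.46 in Ivl and -0.60 in K5/K14 tumours (log2 fold change against skin). With library totals as the only scaling those medians were -1.13 and -1.40, and the fold changes were smaller by more than 1.5 times on the linear scale. Krt6a, Krt6b, Krt16 and Krt17 were then higher by 3.97, 5.96, 4.68 and 2.30 in Ivl tumours and by 3.85, 6.47, 4.88 and 1.94 in K5/K14 tumours, and all passed the test. The sum of Krt6a and Krt6b was then higher by 4.78 and 5.05. With each title group set against skin, all 4 genes rose in K5 tumours and in K14 tumours, where 22.2% and 20.6% of genes rose. The order of the fold changes was the same in both, from Krt6b (7.31 and 7.22) through Krt16 (5.59 and 5.75) and Krt6a (4.49 and 4.83) to Krt17 (2.69 and 2.84). The sum of Krt6a and Krt6b was higher by 5.83 and 5.88.

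**Figure D2:**
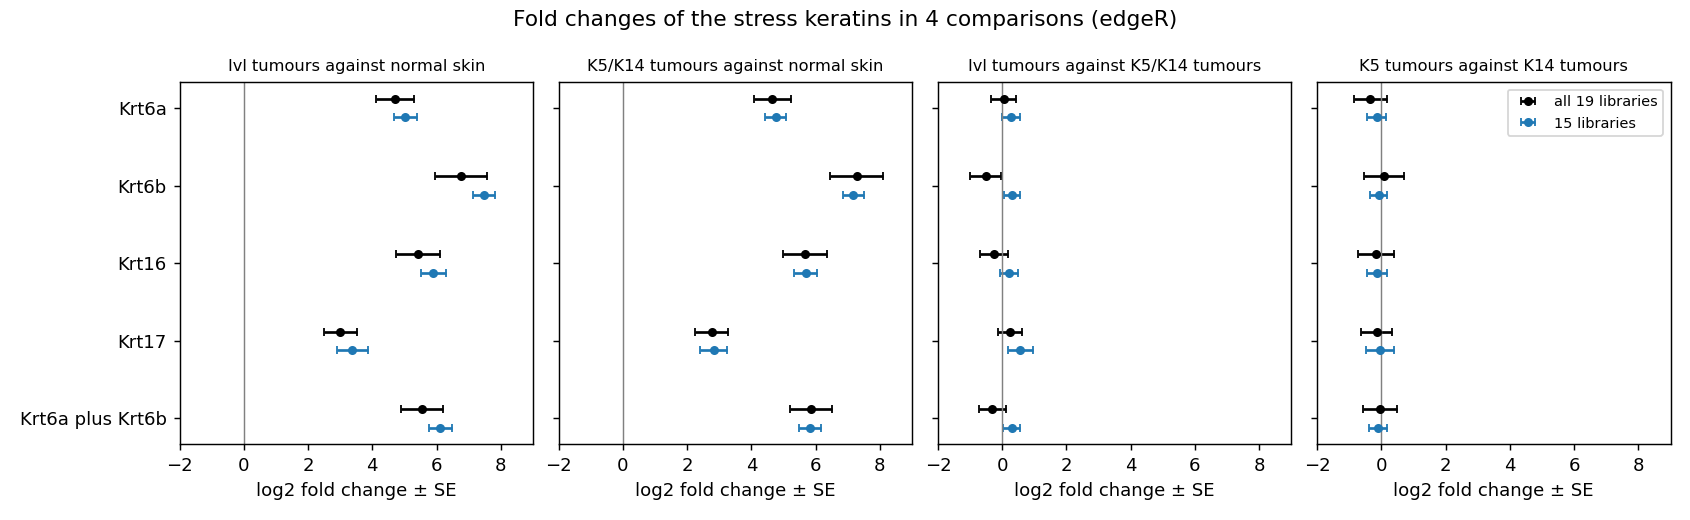
Log2 fold change of each stress keratin and of the sum of Krt6a and Krt6b in 4 comparisons, with the standard error as a bar, over all 19 libraries (black) and within the 15 libraries outside the set of 4 (blue). Values against skin lie between 2.76 and 7.48, and those between tumour groups lie between -0.52 and 0.56.

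Between the tumour groups no stress keratin passed the test. In Ivl against K5/K14 tumours, 0 of 4 changed with edgeR, where 2.36% of 32031 genes changed in either direction. At an unadjusted p under 0.05 it was 0 of 4 as well, where 6754 of the 32031 genes passed. With DESeq2 it was also 0 of 4, where 2133 genes were called. The log2 differences were 0.05 ± 0.39 for Krt6a, -0.52 ± 0.48 for Krt6b, -0.25 ± 0.43 for Krt16 and 0.25 ± 0.37 for Krt17 (n = 6 and 9, edgeR adjusted p 0.57 to 0.98). Within the 15 libraries they were 0.27 ± 0.28, 0.30 ± 0.24, 0.21 ± 0.29 and 0.56 ± 0.39, so that Krt6b and Krt16 changed sign. The sum of Krt6a and Krt6b differed by -0.31 ± 0.41 (edgeR adjusted p = 0.717), and by 0.29 ± 0.26 within the 15 libraries. In K5 against K14 tumours, 0 of 4 changed (0 at an unadjusted p under 0.05, and 0 with DESeq2), where 0% of genes changed with edgeR (1945 genes had an unadjusted p under 0.05, and DESeq2 called 201). The 4 log2 differences lay between -0.34 ± 0.50 (Krt6a) and 0.09 ± 0.62 (Krt6b), and the sum of Krt6a and Krt6b differed by -0.05 ± 0.54. By the medians of the sum of Krt6a and Krt6b the order was skin, Ivl, K14 and K5, at 491, 37158, 37376 and 37635 CPM. The skin samples lay below all others, and the ranges of the 3 tumour groups, neighbours in that order, overlapped.

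Per length of exon, the stress keratins became a main part of the keratin transcripts. Together they made up 12.5% ± 4.66 (SD, n = 4) of the CPM per kilobase of all 54 keratins in skin, 39.2% ± 11.6 (n = 6) in Ivl tumours, 47.7% ± 4.66 (n = 5) in K5 tumours and 44.1% ± 5.20 (n = 4) in K14 tumours. NormalSkin 4 (19.2%) and Ivl 3 (19.3%) were nearly level, and the other 14 tumours lay between 31.3% and 50.8%. In skin the highest keratin per kilobase was Krt14, with Krt10 and Krt5 next. Krt17 was 5th, Krt6a 8th, Krt16 9th and Krt6b 14th of 54. In all 3 tumour groups Krt14 remained first, Krt6b and Krt16 were 2nd and 3rd (in Ivl tumours Krt16 was 2nd), and Krt17 was 7th or 8th.

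**Figure D3:**
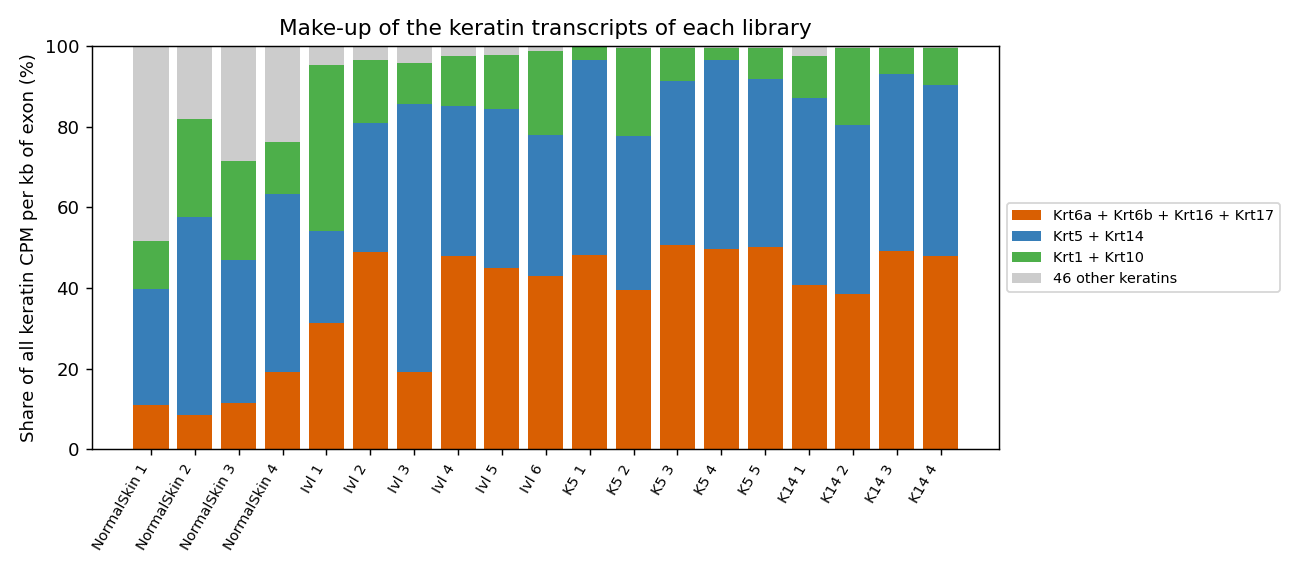
Share of the CPM per kilobase of all 54 keratins taken by the 4 stress keratins, by Krt5 and Krt14 (basal layer), by Krt1 and Krt10 (layers above it) and by the others, 1 bar per library. The stress keratins take 8.46% to 19.2% in skin and 19.3% to 50.8% in tumours. In Ivl 1 they take 31.3% beside 41.3% for Krt1 and Krt10, and in Ivl 3 they take 19.3% beside 66.3% for Krt5 and Krt14.

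General keratinocyte transcripts were higher in tumours than in whole skin too, with 7 of 8 markers up in Ivl and 8 of 8 in K5/K14 tumours. Over all genes 20.4% rose in Ivl and 23.2% in K5/K14 tumours. The summed level of the 8 keratinocyte markers was 5600 to 7492 CPM in skin, 8677 to 21822 CPM in Ivl tumours and 14261 to 25970 CPM in K5/K14 tumours. Each stress keratin was therefore divided by the summed counts of those 8 genes in the same library. On this scale Krt6a still rose by 3.05 on the log2 scale in Ivl tumours, from -3.83 ± 0.77 (SD, n = 4) in skin to -0.77 ± 1.07 (n = 6), with an adjusted p of 0.0267 (two-sided exact permutation test, adjusted over 28 ratios and shares). Krt6b rose by 4.66 (adjusted p = 0.0267, exact permutation test) and Krt16 by 3.62 (adjusted p = 0.0364). For Krt17 the difference was 1.41 (adjusted p = 0.122), and it was 1.92 (adjusted p = 0.0247) without Ivl 1. In K5/K14 tumours the differences were 3.18 for Krt6a, 5.81 for Krt6b, 4.32 for Krt16 and 1.17 for Krt17, and all 4 passed the exact permutation test (adjusted p = 0.00653 for the first 3 and 0.0267 for Krt17). For the sum of Krt6a and Krt6b the ratio was higher by 3.72 in Ivl (adjusted p = 0.0267) and 4.43 in K5/K14 tumours (adjusted p = 0.00653, exact permutation tests). Between Ivl and K5/K14 tumours the ratios differed by -0.12 for Krt6a, -1.14 for Krt6b, -0.70 for Krt16, 0.24 for Krt17 and -0.71 for the sum (adjusted p 0.0988 to 0.826, exact permutation tests). Krt6b passed without Ivl 6 (-1.43, adjusted p = 0.041, exact permutation test), and was at 0.18 within the 15 libraries (adjusted p = 0.160). Within the 15 libraries the Ivl differences from skin were 3.47, 5.88, 4.39 and 1.71 for the 4 genes, in the same direction. There 3 tumours stood against 4 skin samples, the smallest exact p such a design allows is 0.0286, and no adjusted p fell below 0.0615. The call of Krt16 in Ivl tumours was lost without NormalSkin 1, 2 or 3 or Ivl 2, 3 or 4 (adjusted p = 0.0513 each, exact permutation tests), and that of Krt17 in K5/K14 tumours without NormalSkin 1, 2 or 3 (adjusted p = 0.0509, 0.106 and 0.0509).

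**Figure D4:**
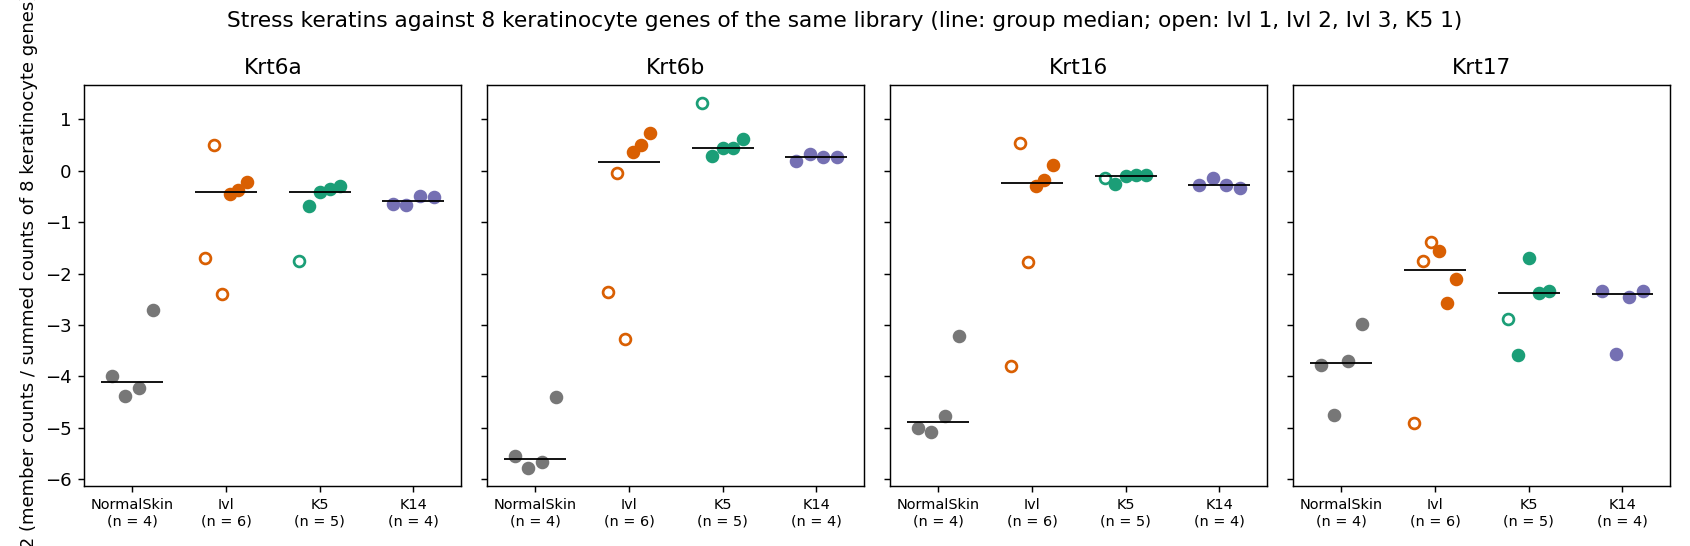
Log2 ratio of each stress keratin to the summed counts of 8 keratinocyte genes of the same library, by group, with the group median as a line and open symbols for Ivl 1, Ivl 2, Ivl 3 and K5 1. Every tumour lies above every skin sample for Krt6a and Krt6b, and every tumour but Ivl 1 (-3.79) does for Krt16. The share of all genes that do so on this ratio scale was not worked out. For Krt17 the groups overlap, and Ivl 1 lies at -4.90, below all 4 skin samples.

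Against the counts of Krt5 and Krt14, the basal keratins that rose too, the differences were smaller. They were 1.57, 3.18 and 2.13 on the log2 scale for Krt6a, Krt6b and Krt16 in Ivl tumours (adjusted p = 0.159, 0.128 and 0.0571, exact permutation tests). In K5/K14 tumours they were 1.25, 3.88 and 2.39 (adjusted p = 0.0280, 0.00932 and 0.00932). Krt17 turned to -0.07 in Ivl and -0.75 in K5/K14 tumours (adjusted p = 0.921 and 0.173, exact permutation tests), so its direction depended on the genes it was set against.

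The make-up of each pair also differed between skin and tumours. Of the Krt6a and Krt6b counts per kilobase, Krt6b took 27.0%, 29.2%, 28.6% and 25.0% in the 4 skin samples. In the 11 tumours outside the set of 4 it took 64.8% to 68.1%, in K5, K14 and Ivl tumours alike, with a mean of 66.4% ± 1.21 (SD). In the set of 4 it took 40.4%, 42.4% and 37.1% in Ivl tumours 1, 2 and 3 and 90.0% in K5 1, values found in no other library. With all libraries the share was higher than in skin by 25.9 percentage points in Ivl tumours (adjusted p = 0.0444) and by 41.5 in K5/K14 tumours (adjusted p = 0.00653, two-sided exact permutation tests). Between Ivl and K5/K14 tumours it differed by -15.7 points (adjusted p = 0.0465), but within the 15 libraries that difference was 0.33 points in the opposite direction (adjusted p = 0.741, exact permutation test). The Ivl difference from skin did not pass without NormalSkin 1, 2 or 3 or Ivl 1, 2, 3 or 4 (23.4 to 29.1 points, adjusted p = 0.0513 each), and that from K5/K14 tumours did not pass without Ivl 1, 2 or 3, K5 1, 2 or 5 or K14 2 (-15.9 to -12.4 points, adjusted p 0.053 to 0.108, exact permutation tests). The 4 libraries of the set and the Ivl group overlap, and the part of the batch adjustment in their shares was not tested.

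Krt16 took 29.8%, 44.1%, 31.9% and 45.5% of the Krt16 and Krt17 counts per kilobase in skin. It took 71.8% ± 15.5 (SD, n = 6) in Ivl tumours and 83.5% ± 5.40 (n = 9) in K5/K14 tumours, with Ivl 3 at 43.3% within the range of skin. The share was higher than in skin by 34.0 points in Ivl (adjusted p = 0.0476) and by 45.6 points in K5/K14 tumours (adjusted p = 0.00653). The Ivl call was lost without NormalSkin 1, 2 or 3 or any Ivl tumour but Ivl 3 (31.3 to 36.1 points, adjusted p 0.0513 to 0.0889, exact permutation tests). The difference between Ivl and K5/K14 tumours, -11.7 points, did not pass (adjusted p = 0.0567), and within the 15 libraries it was -4.18 points (adjusted p = 0.435, exact permutation tests). It passed without Ivl 2, Ivl 5, Ivl 6 or K5 3 (-14.1 to -12.7 points, adjusted p 0.0342 to 0.0435, exact permutation tests). The type II genes together, Krt6a and Krt6b, amounted to 0.541 ± 0.094 (SD) times the type I genes, Krt16 and Krt17, per kilobase in skin (n = 4). Over all 15 tumours the ratio was 1.36 ± 0.597, from 0.287 in Ivl 3, below every skin sample, to 3.17 in Ivl 1. In the 11 tumours outside the set it was 1.29 ± 0.084. This ratio was not tested.

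**Figure D5:**
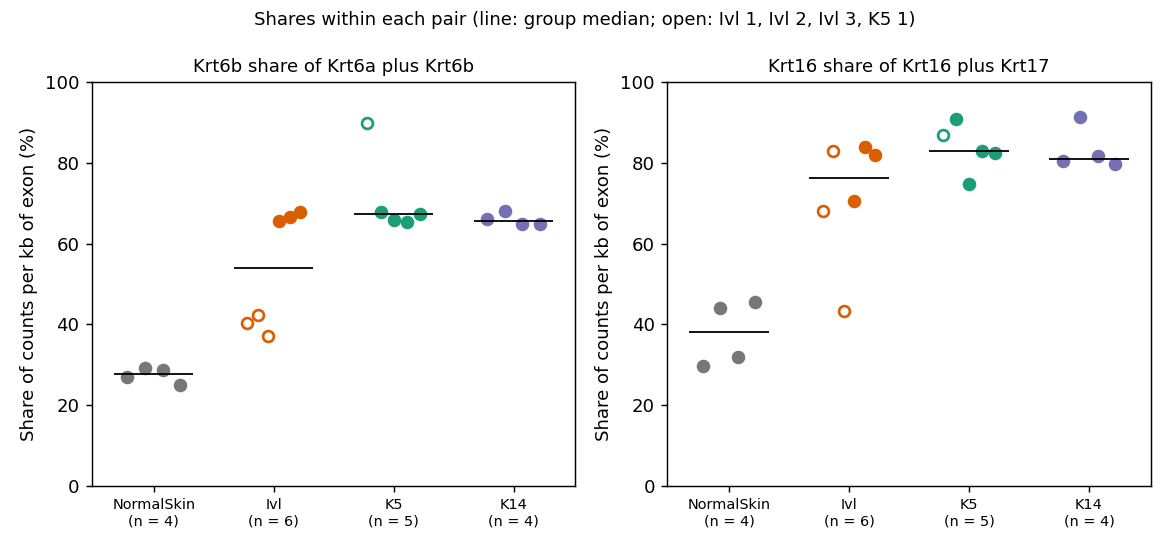
Share of Krt6b in the Krt6a and Krt6b counts, and of Krt16 in the Krt16 and Krt17 counts (percent, per kilobase of exon), by group, with the group median as a line and open symbols for Ivl 1, Ivl 2, Ivl 3 and K5 1. The Krt6b share forms a narrow band at 64.8% to 68.1% in 11 tumours and one at 25.0% to 29.2% in skin, with 3 open symbols between them and K5 1 at 90.0%.

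Over the 15 tumours, the genes whose log2 CPM ranked most like a member were found by Spearman's rho among 14943 genes, as a description. For Krt6a the most alike gene was Krt16 (rho 0.96 over 15 tumours, 0.96 over the 11 outside the set). Next came Pacsin3, Tgm1 (the transglutaminase that crosslinks the cornified envelope), Cemip and Mon1b, at 0.88 to 0.91. For Krt16 it was Krt6a, then Uox, Cemip, Pacsin3 and Ell2 (0.87 to 0.91). For Krt6b it was Krt14 (0.96), then Sprr1b and Cdsn, which encode cornified layer proteins, Ankrd13a and Gm43587 (0.90 to 0.95). Krt6a and Krt6b were at 0.42 over the 15 tumours and 0.95 over the 11, and Krt6b and Krt16 at 0.56 and 0.99. For the sum of Krt6a and Krt6b the genes were Cdsn, Fam214b, Sprr1b, Ankrd13a and Krt14 (0.90 to 0.93). For Krt17 they were Sprr2f, Cpn1, Lpin2, Ankk1 and Lgalsl (0.85 to 0.91), and its rho with the other 3 members was 0.41 to 0.73. All of these values share the libraries, their scaling and the share of keratinocytes in each tumour.

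Genes known to act around the stress keratins are given by list, each beside the shares of all genes that rose (20.4% in Ivl, 23.2% in K5/K14 tumours) or fell (15.5% and 38.9%) against skin. Of the wound-edge alarmin and barrier genes, 11 of 11 rose in Ivl and 11 of 11 in K5/K14 tumours (median log2 fold change 5.97 and 6.57, against -0.46 and -0.60 over all genes). Lcn2, an iron-scavenging defence protein, rose least, by 2.43 ± 0.64 and 1.93 ± 0.60. Defb3, a beta-defensin, was at 0 in all skin libraries and at a mean of 29.4 CPM in Ivl and 7.96 CPM in K5/K14 tumours, at least 901-fold and at least 244-fold higher against a floor of 3 counts per skin library.

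Of the 10 genes tested in the list of cytokines and Stat3, 10 rose in Ivl tumours and 8 in K5/K14 tumours. The medians were 3.64 and 2.63, or 3.15 and 2.37 with the genes nearly absent from skin set against 3 counts. Il6, Il17a, Il17f and Il20 stayed scarce in Ivl tumours, at means of 0.97, 0.37, 0.31 and 0.12 CPM. Il24, a keratinocyte cytokine that acts through STAT3, had 1 count in the 4 skin libraries together and 0.384 to 22.3 CPM in Ivl and 2.60 to 52.0 CPM in K5/K14 tumours. Stat3 itself rose least, by 0.61 ± 0.15 and 0.85 ± 0.15. The 2 that did not pass in K5/K14 tumours were Il17a and Il17f (log2 difference 0.01 and 0.75). Il22 was not tested.

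In the EGF receptor and ligand list, 5 of 8 rose in Ivl and in K5/K14 tumours (median 2.35 and 2.79). The ligand with the largest rise was Epgn in Ivl tumours (3.82 ± 0.93) and Areg in K5/K14 tumours (5.14 ± 0.93), and the smallest of those that rose in Ivl tumours was Tgfa (1.87 ± 0.41). In K5/K14 tumours 2 of 8 fell, Egf (-3.19 ± 0.53) and the receptor Egfr (-0.56 ± 0.15). Both also fell in Ivl tumours within the 15 libraries (-2.01 ± 0.57 and -0.66 ± 0.13), but not over all libraries (-1.12 and -0.38). Of AP-1 and other transcription factors linked to these promoters, 7 of 13 rose and 1 fell in Ivl tumours, and 9 rose and 1 fell in K5/K14 tumours (median 0.63 and 1.24). Fosl1, an AP-1 subunit, rose most, by 3.99 ± 0.71 and 4.68 ± 0.72. The genes that fell were the Hedgehog factors Gli2 in Ivl (-1.15 ± 0.31) and Gli1 in K5/K14 tumours (-3.75 ± 0.78), and within the 15 libraries Gli1 fell in Ivl tumours as well (-2.71 ± 0.95).

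Of the wound-edge migration genes, 10 of 12 rose in Ivl (9 within the 15 libraries) and 11 of 12 in K5/K14 tumours (median 1.93 and 2.56). Mmp10, a matrix metalloproteinase of migrating keratinocytes, rose most, by 6.73 ± 1.24 and 8.88 ± 1.34. The smallest rises were those of Lamb3 in Ivl (1.46 ± 0.38) and Itga5 in K5/K14 tumours (2.04 ± 0.35). In Ivl against K5/K14 tumours Itga5 (-1.27 ± 0.28) and Lamb3 (-1.17 ± 0.31) were lower, and within the 15 libraries 0 of 12 passed. Egf was higher in Ivl than in K5/K14 tumours (2.06 ± 0.49), which also did not pass within the 15 libraries.

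The keratins of resting epidermis did not move as 1 group. Krt5, Krt14, Krt1 and Krt10 rose in both comparisons, from 2.15 ± 0.55 (Krt10 in K5/K14) to 3.74 ± 0.43 (Krt14 in K5/K14). Krt15, Krt2 and Krt77 fell in K5/K14 tumours, Krt77 most (-4.49 ± 1.34), and had values of -1.27, -0.63 and -1.82 that did not pass in Ivl tumours. In the fit within the 15 libraries Krt15 (-2.22 ± 0.71) and Krt77 (-5.24 ± 1.80) fell in Ivl tumours too. Of all 50 keratins other than the stress keratins, 9 rose and 1 fell in Ivl tumours, and 7 rose and 14 fell in K5/K14 tumours (median -1.12 and -2.72). These counts include the 7 keratins of resting epidermis. Krt13, a keratin of mucosal epithelium, rose most, by 10.5 ± 1.48 and 4.0 ± 1.09, and those that fell most were Krt222 in Ivl (-1.65 ± 0.58) and Krt24 in K5/K14 tumours (-4.86 ± 1.25). In Ivl tumours 9 rose and 6 fell within the 15 libraries, Krt77 most. In Ivl against K5/K14 tumours Krt13, Krt4 and Krt76 were higher and no other keratin passed.

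Hair follicles express Krt6a, Krt16 and Krt17 in skin that is not wounded, so follicle markers were set beside the levels. The summed level of 8 genes of the companion layer and inner root sheath was 87.2 to 4727 CPM in skin, 31.4 to 2700.5 CPM in Ivl and 96.5 to 1970.2 CPM in K5/K14 tumours. In K5/K14 tumours 2 of the 8, Krt75 and Tchh, fell, where 38.9% of all genes fell. NormalSkin 2, at 87.2 CPM, held 359 CPM of Krt6a, 222 of Krt16 and 279 of Krt17, and NormalSkin 1, at 4727 CPM, held 362, 181 and 422 CPM. Between these samples Krt6a was nearly level, and Krt17 was lowest in the sample with the lowest follicle sum. NormalSkin 3 and 4, with follicle sums of 2259 and 2047 CPM, held more Krt17 than NormalSkin 1 (465 and 714 CPM). Krt17 therefore did not follow the follicle sum over all skin samples. Of 9 hair shaft keratins 8 were tested and none passed in either comparison, and of the 8 none was at 0 in every library of a group. For NormalSkin 4, the highest of the skin samples for all 4 stress keratins, the fibroblast sum (13857 CPM) was also the highest of the 19 libraries, and the keratinocyte sum (5600 CPM) was the lowest. Their part in the levels was not tested. Ivl 3 had the lowest keratinocyte sum of the tumours (8677 CPM) with a fibroblast sum of 7665 CPM, whereas Ivl 1 had the highest keratinocyte sum of the Ivl tumours (21822 CPM) with a fibroblast sum of 1035 CPM. Skeletal muscle genes fell in K5/K14 tumours, 5 of 5, and had summed levels of 2065 to 6026 CPM in skin, 4.09 to 3622 CPM in Ivl and 4.95 to 325 CPM in K5/K14 tumours. Of the 5 leukocyte genes Cxcr2, a neutrophil receptor, rose in both comparisons, and 2 fell in K5/K14 tumours. In K5/K14 tumours 1 of 5 fibroblast genes and 2 of 5 adipocyte genes fell, and in Ivl tumours none of them passed. Over all genes 38.9% fell in K5/K14 tumours and 15.5% in Ivl tumours. The counts of fibroblast, adipocyte and leukocyte genes that fell in K5/K14 tumours were therefore near that share or below it. In Ivl tumours, within the 15 libraries, the fibroblast genes Col1a1 (-3.01) and Pdgfra (-2.60), the muscle gene Mylpf (-3.22), the leukocyte genes Ptprc (-1.84) and Cd3e (-1.91) and the adipocyte gene Lep (-7.53) fell and the adipocyte gene Fabp4 rose (2.98). In that fit 10465 of 31971 genes fell and 7101 rose. The adipocyte sums were 122 to 598 CPM in skin, 69.7 to 3474 CPM in Ivl and 158 to 699 CPM in K5/K14 tumours. Fabp4 was the largest part of them, with means of 220, 1183 and 455 CPM. Adipoq, Plin1, Cidec and Lep had lower means in both tumour groups than in skin, such as Plin1 at 49.1, 6.84 and 2.59 CPM. The endothelial sums were 30.2 to 263, 53.7 to 226 and 107 to 289 CPM. The part of these cell types in the result was not tested.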

How the data were processed

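Bulk poly(A) RNA-seq libraries of 15 tumours and 4 skin samples were analysed. As the labels and the paper's methods state, the authors trimmed reads, aligned them with HISAT2 2.1.0 to GRCm38, counted genes with featureCounts (Subread 1.6.3) and adjusted the table for batch with ComBat-seq. The deposited values are therefore estimated counts (whole numbers, not scaled), and were tested as counts. Members and lists were chosen with earlier results of these data known. The 32031 genes that reached 5 counts in any library were tested with edgeR 4.0.16 (TMM, quasi-likelihood F test, Benjamini-Hochberg over all genes; adjusted p under 0.05), all 19 libraries in 1 fit, K5 and K14 merged as in the study. Standard errors were derived from the fold change and F, and leave out errors of the batch adjustment. CPM per kilobase used GENCODE M21 exon lengths. Ratios and shares were tested by two-sided exact permutation (Python 3.11.15). Named genes were the members, per member the 5 genes most alike over the tumours (mean CPM at least 1), and per list the largest and smallest changes; other named list members were chosen after their values were seen. The labels do not say whether tumours came from separate mice, so p-values measure the spread between these samples. None of 37 replicate pairs agreed within sampling noise (chi-square). The test was first checked on simulated data. Sets of 4 libraries were scanned because the paper's supplement names a batch of 4. Promoter and protein sequences of the members were not used here.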

Additional observations from a re-analysis of the deposited data

Results flagged for a closer look

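Within groups of 4 to 6 samples, 6 of 28 sets of values held 1 sample far from the rest by Dixon's test, which flags about 1 in 20 by chance. In normal skin, sample 4 was high for Krt6a (860.0 CPM), Krt6b (265 CPM), their sum (1125 CPM) and Krt16 (602 CPM). These are 4 related measures of 1 sample. The fold changes against skin without it are given with the leave-one-out values. K5 1 stood apart for the Krt6b share of Krt6a and Krt6b (90.0%), and it is 1 of the 4 libraries that stood apart as a set. K14 2 stood apart for the Krt16 share of Krt16 and Krt17 (91.5%), with K5 2 close to it at 90.9%.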

How the results depend on the processing

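In all 27 alternatives tried for the counts (other scaling, filters, DESeq2, the set of 4 as a covariate or left out, a replicate block, each library left out) all 4 stress keratins passed against skin in both comparisons and none passed between tumour groups. Against skin the log2 fold changes ran from 3.97 to 5.16 (Krt6a), 5.96 to 7.48 (Krt6b), 4.68 to 5.95 (Krt16) and 2.30 to 3.38 (Krt17) in Ivl tumours. In K5/K14 tumours they ran from 3.85 to 5.09, 6.47 to 7.61, 4.88 to 6.22 and 1.94 to 3.01. The largest adjusted p was 0.00183. Without NormalSkin 4 the differences were 5.13, 7.07, 5.95 and 3.25 in Ivl tumours and 5.09, 7.61, 6.22 and 3.01 in K5/K14 tumours.

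The small differences between tumour groups changed sign in places. In Ivl against K5/K14 tumours, within the 15 libraries, Krt6b was at 0.30, Krt16 at 0.21 and the sum of Krt6a and Krt6b at 0.29. With libraries left out in turn Krt6a ran from -0.12 to 0.27, Krt17 from -0.018 to 0.47 and the sum from -0.48 to -0.08. In K5 against K14 tumours Krt6b was at -0.089 within the 15 libraries and ran from -0.089 to 0.25 with libraries left out, Krt17 from -0.48 to 0.061 and the sum from -0.19 to 0.12. With the set of 4 as a covariate Krt16 was at 0.024 and the sum at 0.19. The cause was not tested.

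The replicate numbers of the titles do not pair the samples. Same-numbered samples of 2 groups deviated together with a median r of -0.03 (25 pairs, -0.41 to 0.50), and 3 of 18 libraries correlated best with their own number. With the numbers as a replicate block, Krt6a in Ivl against K5/K14 tumours was at -0.14 and Krt6b in K5 against K14 tumours at -0.015. Krt6b in Ivl tumours against skin was at 6.10, and no call of a member changed. Over all genes the block gave 7700 calls against 11515 (Ivl against skin) and 46 against 756 (Ivl against K5/K14).

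Leaving out libraries in turn was added for ratios and shares after seeing the data. In Ivl tumours against skin the Krt6b share ran from 23.0 to 29.1 points and the Krt16 share from 31.3 to 39.7, and within the 15 libraries they were 39.2 and 41.0 (adjusted p = 0.0615 each, exact permutation tests). In Ivl against K5/K14 tumours the Krt6b share ran from -18.6 to -12.4 and was 0.335 within the 15, and the Krt16 share ran from -14.1 to -5.95. In K5 against K14 tumours the Krt16 share ran from -1.62 to 2.91 and was -0.621 within the 15. Of the ratios to keratinocyte genes, those in Ivl against K5/K14 tumours were 0.16 (Krt6a), 0.18 (Krt6b), 0.078 (Krt16) and 0.17 (sum) within the 15, and Krt6a was 0.32 with Krt5 and Krt14 as reference and ran from -0.38 to 0.20. In K5 against K14 tumours Krt6a was 0.14 within the 15 and ran from -0.22 to 0.14, and Krt17 ran from -0.20 to 0.35. With Krt5 and Krt14 as reference Krt17 was -0.073 (Ivl) and -0.75 (K5/K14) against skin, and the sum 2.24 in Ivl tumours (adjusted p = 0.128, exact permutation test).

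Counts of calls over all genes moved more. Ivl against skin gave 11515 calls, 18328 with library totals (2868 higher, 15460 lower) and 17566 within the 15. Ivl against K5/K14 tumours gave 756, 131 within the 15, 449 with the covariate and 2133 with DESeq2. K5 against K14 tumours gave 0, 17 within the 15 and 201 with DESeq2. Depth did not limit the members, whose lowest level in any library was 119 CPM. The batch adjustment was made before deposit, and its part in the values was not tested, nor was that of the reads that Krt6a and Krt6b share.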
